A study of Mus musculus with 12 samples.

Results

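The neurite cytoskeleton genes followed here are 10 genes chosen by name: Tubb3, Tubb2b, Dcx, Map1b, Map2, Stmn1, Stmn2, Stmn3, Stmn4 and Gap43. All 10 were found by symbol among the 27998 genes of the P7 single-cell libraries and by Entrez identifier among the 40814 genes of the culture table. The rule is a list of names with no limit on a measured value, drawn up with earlier results of these data known. They were examined along the granule cell lineage of the mouse dentate gyrus and in cultures differentiated from dentate gyrus neurospheres, with and without Larp7, a protein that binds and stabilizes the 7SK small nuclear RNA and so helps to hold the transcription elongation factor P-TEFb inactive.

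A neurite is built on microtubules, which are polymers of α- and β-tubulin dimers. Tubb3 and Tubb2b are β-tubulins of neurons, and Dcx, Map1b and Map2 bind the microtubule wall and stabilize it. The stathmins (Stmn1 to Stmn4) bind free tubulin dimers and favour disassembly, and Gap43 lies at the membrane of the growth cone. Granule neurons of the dentate gyrus arise from radial glia-like cells (RGL) through dividing neuronal intermediate progenitors (nIPC) and neuroblasts, and Dcx and Tubb3 are in wide use as labels of newborn neurons.

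The P7 data hold 3 genotypes with 1 library of dissected dentate gyri each, and 3 to 4 gyri of littermates were combined per library. The wild-type animals were Larp7-floxed mice without Cre. In Larp7f/f;nestin-Cre mice the floxed exon is deleted throughout the developing nervous system and in some other organs, and in Larp7f/f;Emx1-Cre mice it is deleted in dorsal forebrain progenitors and their progeny. The genotype entries of the mutant libraries were exchanged relative to their titles, and titles were followed here. The number of nestin-Cre cells that the study kept is larger than the library titled Emx1-Cre, so those cells could not all come from it. By their titles, the nestin-Cre library held 7177 barcodes and the Emx1-Cre library 6821. The cultures were neurospheres grown from P1 dentate gyrus, plated and differentiated for 2 days. They gave 2 wild-type (WT) libraries and 3 knockout (KO) libraries from Larp7f/f;Emx1-Cre mice. For these days the study's methods give Matrigel and 20 ng/ml bFGF. Its results instead describe EGF and FGF taken away and serum added at the start. Nothing in the labels says that the culture libraries came from separate litters, so the p-values below measure the spread between these libraries, which may be technical.

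The 3 single-cell libraries held 26689878 to 28918491 UMIs, with 10997 wild-type, 6685 nestin-Cre and 6531 Emx1-Cre cells kept. The wild-type library was the shallowest per cell, at a median of 1782 UMIs against 3644 and 3873, and 4286 of its cells stayed in unnamed clusters. Between 30 and 42 barcodes of a library also occurred in another one. Levels are given as CPM, the usual counts scaled to the total, here the UMIs of a class. Larp7 stood at 53.1 CPM in the neuroblast-like cells of the wild-type library, at 9.18 in the nestin-Cre library and at 13.9 in the Emx1-Cre library. It was lower in both mutant libraries in each of the 4 lineage classes, which does not tell the mutant libraries apart.

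Cells were clustered without the 10 genes and without a list of 113 further neurite cytoskeleton genes, and clusters were named from marker lists. The lineage classes held 942, 1049 and 1104 RGL-like cells in the wild-type, nestin-Cre and Emx1-Cre libraries (leading genes Gdf10, Gas1 and Hopx), 782, 607 and 773 nIPC-like cells (Neurog2, Eomes, Mki67), 1610, 1775 and 1836 neuroblast-like cells (a cluster led by Tac2 and another led by Neurod2) and 325, 1012 and 699 granule neuron-like cells (Gal, Sema5a, Nrgn). The summed neuroblast markers in the granule neuron-like cells were at 193, 195 and 203 per 10000 UMIs, close to the 185, 203 and 194 of the neuroblast-like cells, whereas granule neuron markers were at 20.3, 25.6 and 23.2 against 9.03, 12.4 and 11.5. The name granule neuron-like therefore covers young cells. Levels below are given in the order wild-type, nestin-Cre, Emx1-Cre. With 1 library per genotype no test between classes or genotypes was possible, and the 95% intervals are exact ones that cover counting error only.

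Along the lineage, the wild-type library had 9 of the 10 genes higher by 1.5-fold or more in neuroblast-like than in nIPC-like cells, beside 20.3% of the 8142 genes described (those with at least 100 UMIs). In the nestin-Cre library this held for 8 of the 10 genes (background 19.6%), and in the Emx1-Cre library for 8 (background 21.3%). None was that much lower (background 14.6%, 14.0% and 14.3%). Over this step the 10 genes had median log2 ratios of 2.14, 1.92 and 2.21, against 0.08, 0.06 and 0.09 over all genes described. Under 6 other ways of processing the wild-type median of this step was lower, at 1.61 to 1.99. The step before it, from RGL-like to nIPC-like cells, was uneven in the wild-type library, with 5 genes past 1.5-fold upwards (background 18.5%) and 2 downwards (background 23.1%). The mutant libraries had 5 upwards (background 18.0% and 18.7%) and 1 downwards each (background 26.1% and 24.9%). The wild-type median of this earlier step was 0.55, and it was higher under the 6 other ways, at 0.85 to 1.61. With the 6% highest doublet scores removed, the medians of the 2 steps were 1.61 and 1.606. The larger median at the later step thus depends on how the classes were formed. Over the last step, from neuroblast-like to granule neuron-like cells, 2 wild-type genes were past 1.5-fold upwards (background 6.31%) and 1 downwards (background 8.61%), with a median log2 ratio of 0.04. In each mutant library 1 was past it upwards (background 7.02% and 5.63%) and 1 downwards (background 7.62% and 8.38%). Summed over the 10 genes, the wild-type library gave 42.4 UMIs per 10000 in RGL-like, 72.7 in nIPC-like, 166 in neuroblast-like and 178 in granule neuron-like cells.

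Free RNA in droplets gives some UMIs of a gene in cells that do not make it, so microglia-like cells of the same library were taken as a measure of that background. That class joined clusters that differed in these genes. In one wild-type cluster (252 cells) Dcx was at 61.1 CPM, Tubb3 at 118 and Stmn2 at 40.3. In another (271 cells) they were at 293, 526 and 224 CPM. The joint level is thus a high bar in the wild-type library. In neuroblast-like and granule neuron-like cells all 10 genes lay above the microglia-like level in each library. In RGL-like cells Dcx, Tubb3 and Stmn2 lay below it in all 3 libraries, as did Stmn2 and Stmn4 in nIPC-like cells, and these levels are not read as expression. Wild-type nIPC-like Tubb3 also lay below it, and wild-type nIPC-like Tubb2b, Map1b and Gap43 overlapped with it. Tubb3 and Map1b overlapped with it in nIPC-like cells of the Emx1-Cre library. In RGL-like cells Stmn3 and Stmn4 lay below it in the wild-type library and overlapped with it in both mutant libraries. Gap43 overlapped with it in RGL-like cells of all 3 libraries, and Stmn1 in those of the wild-type library. The size of a ratio to any of these levels is not read, beyond which class was higher. Medians over the 10 genes that take in RGL-like or nIPC-like cells include such ratios, so the size of these medians is not read either.

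**Figure D1:**
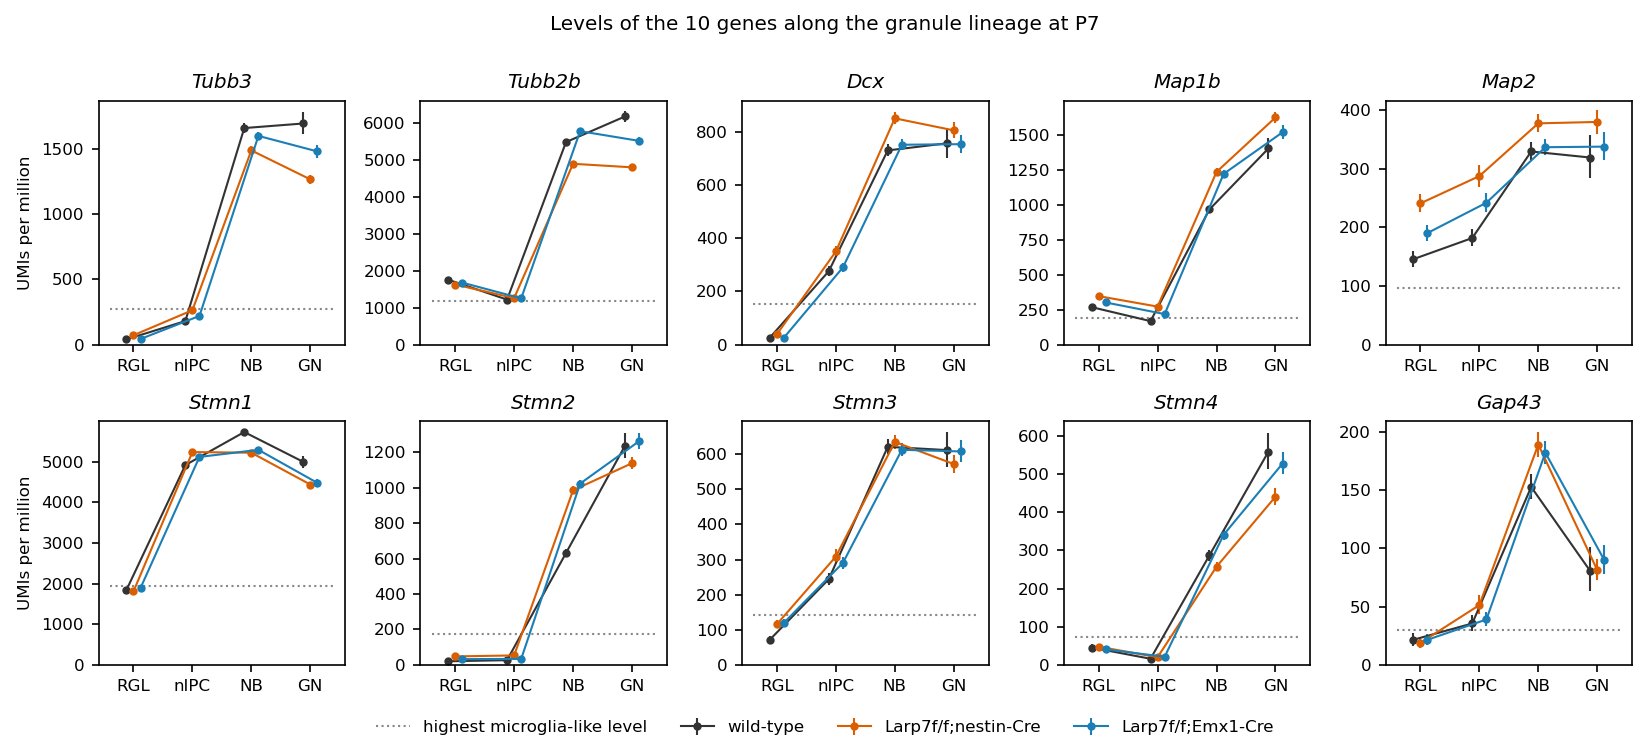
CPM (UMIs scaled to the total of a class, linear axis from 0) of each of the 10 genes in RGL-like, nIPC-like, neuroblast-like (NB) and granule neuron-like (GN) cells of the 3 P7 libraries. Points are sums over the cells of a class, bars are exact 95% Poisson intervals, and the dotted line is the highest microglia-like level of that gene. Most genes step up between nIPC-like and neuroblast-like cells, whereas Stmn1 is already near its highest level in nIPC-like cells and Gap43 is lower again in granule neuron-like cells.

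The tubulin genes followed different courses before the neuroblast stage. Tubb3 (chr8:123411553-123422015, plus strand, 4 exons in mm10/GRCm38) was at 40.4, 72.0 and 43.6 CPM in RGL-like cells, 181, 264 and 220 in nIPC-like, 1659, 1488 and 1599 in neuroblast-like and 1694, 1266 and 1480 in granule neuron-like cells. The neuroblast-like level was the first that lay above the joint microglia-like level in all 3 libraries. Against the microglia-like cluster of 252, 341 and 211 cells alone, the nIPC-like level already lay above in each. Tubb2b (chr13:34127008-34130354, minus strand, 4 exons) was already at 1761, 1630 and 1681 CPM in RGL-like cells, was lower in nIPC-like cells at 1221, 1262 and 1256, and then stood at 5490, 4902 and 5786 in neuroblast-like cells. Tubb2b thus reached its lowest lineage level in the dividing progenitors in each library, where the wild-type level overlapped with the microglia-like one. Tubb2a, its near-identical neighbour, may share reads with it, and Tubb2a was at 437, 415 and 464 CPM in neuroblast-like cells.

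The microtubule-binding proteins differed in when they first appeared. Dcx (chrX:143855842-143933396, minus strand) was at 26.4, 39.2 and 26.6 CPM in RGL-like cells and at 276, 350 and 290 in nIPC-like cells, above the microglia-like 108 to 151. Of Dcx, Tubb3 and Stmn2, which were all below the joint microglia-like level in RGL-like cells, it alone was above that level in nIPC-like cells of all 3 libraries. Against the microglia-like cluster of 252, 341 and 211 cells alone (118, 116 and 165 CPM), nIPC-like Tubb3 at 181, 264 and 220 was above too. Dcx reached 730, 850 and 751 CPM in neuroblast-like cells and stayed at 756, 805 and 753 in granule neuron-like cells. Map1b (chr13:99421464-99516602, minus strand) was above background in RGL-like cells at 269, 347 and 302 CPM, lower in nIPC-like cells at 169, 272 and 219, and highest in granule neuron-like cells at 1404, 1626 and 1520. Map2 (chr1:66175202-66442583, plus strand), a protein of dendrites in mature neurons, had the flattest course among the genes that bind microtubules, with 146, 241 and 190 CPM in RGL-like and 319, 380 and 338 in granule neuron-like cells.

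The 4 stathmins separated into an early, an intermediate and 2 late genes. Stmn1 (chr4:134468320-134473843, plus strand), which is also made by dividing cells outside the nervous system, was at 1840, 1808 and 1894 CPM in RGL-like cells and at 4920, 5241 and 5121 in nIPC-like cells, and in the nestin-Cre library its nIPC-like level was not below the neuroblast-like 5225. It was lower again in granule neuron-like cells, at 5000, 4442 and 4482, and the wild-type ratio to neuroblast-like cells was 0.872. Stmn3 (chr2:181306459-181314500, minus strand) was at 71.9, 116 and 120 CPM in RGL-like, 244, 309 and 291 in nIPC-like and 621, 635 and 613 in neuroblast-like cells, with nearly the same level in granule neuron-like cells of the wild-type and Emx1-Cre libraries. Stmn2 (chr3:8509527-8561604, plus strand), the stathmin enriched in growth cones, was at 26.7, 53.5 and 34.1 CPM in nIPC-like cells, under the microglia-like 112 to 173. It was at 631, 985 and 1023 CPM in neuroblast-like cells and at 1236, 1138 and 1262 in granule neuron-like cells. Stmn4 (chr14:66344210-66361680, plus strand) was likewise near background until the neuroblast stage, at 16.1, 20.2 and 21.4 CPM in nIPC-like cells, and went on from 287, 258 and 341 to 559, 441 and 528 CPM in granule neuron-like cells. Stmn2 and Stmn4 were the 2 genes past 1.5-fold over the last wild-type step, at 1.96-fold and 1.95-fold.

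Gap43 (chr16:42248552-42340651, minus strand, 3 exons), which accompanies axon growth, had a peak within the lineage. It was at 21.6, 18.9 and 21.6 CPM in RGL-like cells, 35.5, 51.3 and 39.0 in nIPC-like, 153, 189 and 182 in neuroblast-like and 80.6, 81.4 and 89.9 in granule neuron-like cells. Its level in granule neuron-like cells was 0.528, 0.431 and 0.494 of that in neuroblast-like cells. It was the only one of the 10 genes at least 1.5-fold lower over that step in any of the 3 libraries.

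The neuroblast-like class joined a cluster led by Tac2 and a cluster led by Neurod2, which differed in these genes in the same order in each library. Stmn2 was at 260, 460 and 363 CPM in the cluster led by Tac2 and at 1122, 1621 and 1680 in the one led by Neurod2. Stmn4 was at 141, 136 and 155 against 480, 404 and 526 CPM, and Map1b was at 720, 962 and 828 against 1296, 1567 and 1615. Stmn1 went the other way, with 5978, 5575 and 5629 against 5411, 4801 and 4964 CPM.

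RefSeq promoters of GRCm38.p6 were at hand for 5 of the 10 genes (Dcx, Map1b, Map2, Stmn3 and Tubb3), with none for Tubb2b, Stmn1, Stmn2, Stmn4 and Gap43. Among the 4 lineage classes these 5 genes were all highest in neuroblast-like or granule neuron-like cells. The 100 bases before the start site are shown for them, with the upstream one of the 2 starts of Dcx. They are written 5′ to 3′ on the gene's strand, and capitals mark matches on either strand to the motifs searched. These were the E-box CAGATG, a site of factors such as Neurod1, and a further E-box with the letters CAGCTG. The search also took in the SOX core ACAATG, the TATA box written TATAAA, the GC box with the letters GGGCGG and lastly the CCAAT box. Matches did not overlap one another in these windows.
Tubb3, chr8:123411453-123411552, plus strand: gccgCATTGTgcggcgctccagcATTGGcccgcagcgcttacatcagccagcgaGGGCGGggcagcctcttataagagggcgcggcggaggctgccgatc
Map2, chr1:66175229-66175328, plus strand: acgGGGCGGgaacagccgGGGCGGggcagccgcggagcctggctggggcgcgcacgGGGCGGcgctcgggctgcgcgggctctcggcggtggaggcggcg
Stmn3, chr2:181314501-181314600, minus strand: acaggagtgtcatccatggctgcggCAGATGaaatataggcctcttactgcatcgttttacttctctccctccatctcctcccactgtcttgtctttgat
Dcx, chrX:143933220-143933319, minus strand: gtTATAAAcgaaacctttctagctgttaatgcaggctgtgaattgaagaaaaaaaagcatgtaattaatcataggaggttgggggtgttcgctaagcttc
Map1b, chr13:99516603-99516702, minus strand: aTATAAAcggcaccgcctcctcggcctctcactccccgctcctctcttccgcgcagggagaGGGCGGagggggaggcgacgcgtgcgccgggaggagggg
The Tubb3 window held ACAATG (read on the other strand, starting at -96), CCAAT (on the other strand, at -77) and GGGCGG (at -46), which occur in 4.27%, 18.9% and 24.7% of the 32851 promoter windows of this length. The Map2 window held GGGCGG 3 times (at -97, -82 and -44). The Stmn3 window held CAGATG at -75, a motif in 5.62% of windows, and this start of Dcx held TATAAA at -98, a motif in 5.56%. The Map1b window held TATAAA at -99 and GGGCGG at -39, and the window of the other Dcx start (chrX:143933125-143933224) held none of the motifs. No motif was common to the 5 windows shown, and their G and C content ran from 38.0% for Dcx to 85.0% for Map2 around a median of 55.0% over all windows. A match is a description of letters and not a site.

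Outside the lineage, Cajal-Retzius-like cells, which are early-born neurons of the hippocampal fissure, had a different make-up of the same genes. Gap43 was at 700, 1745 and 1721 CPM in these cells and Stmn2 at 949, 2668 and 2304, both above the neuroblast-like cells of the same library. Dcx was at 296, 54.2 and 94.5 CPM there, below neuroblast-like cells in each library. These values rest on 65, 87 and 27 cells, and the wild-type ones had a median of 915 UMIs against 5713 and 6949 in the mutant libraries. In oligodendrocyte precursor-like cells Gap43 was at 226, 240 and 184 CPM and Dcx at 264, 283 and 247, both above the microglia-like level, whereas Tubb3 was at 261, 168 and 213, near that level.

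**Figure D2:**
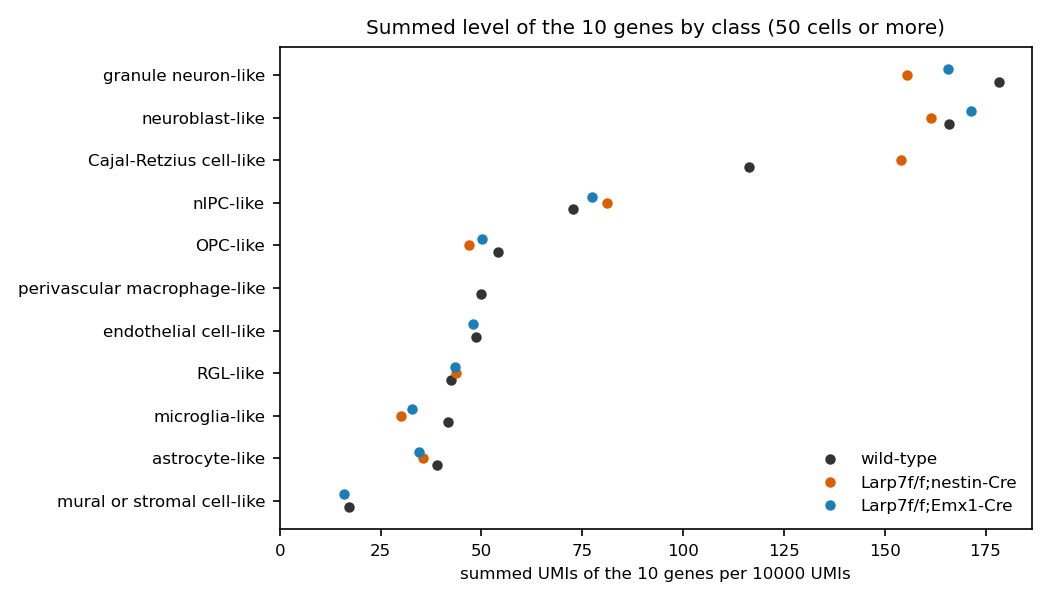
Summed UMIs of the 10 genes per 10000 UMIs (linear axis from 0) in each named class with at least 50 cells, 1 point per library. Granule neuron-like and neuroblast-like cells are highest at 156 to 178, Cajal-Retzius-like cells follow at 116 in the wild-type and 154 in the nestin-Cre library, and RGL-like cells lie at 42.4 to 43.7, among the glial and vascular classes.

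Over the 28 sums of a named class in a library with at least 50 cells, the 5 genes whose log2 level was most like the mean profile of the 10 were Mllt11 (Pearson r = 0.969), Nsg1 (r = 0.967), Rab3a (r = 0.966), Celf5 (r = 0.963) and Rtn1 (r = 0.962), among 13134 genes. Nsg1 and Rab3a are proteins of neuronal vesicle traffic. The sums share libraries and depth, so these r values describe the pattern only. Of the 10 genes themselves, Stmn3 was most like the mean of the other members (r = 0.928) and Stmn1 least (r = 0.693).

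The mutant libraries were then compared with the wild-type library within each class, to ask whether the genes differed without Larp7 at the same stage. Both comparisons use the same wild-type library, so they are not independent. In neuroblast-like cells 1 of the 10 genes, Stmn2, passed 1.5-fold upwards in the nestin-Cre library (background 9.76% of 8976 genes) and in the Emx1-Cre library (background 6.76% of 9143 genes). With 1 gene of 10, this is close to the share over all genes. No gene of the 10 was that much lower (background 7.66% and 2.95%). Stmn2, at 631, 985 and 1023 CPM, had log2 ratios of 0.64 (95% interval 0.58 to 0.70) and 0.70 (0.64 to 0.76). The ratio stood above 0 under all 8 other ways of forming the class, at 0.33 to 0.83 for nestin-Cre and 0.43 to 0.80 for Emx1-Cre, but it did not always reach 1.5-fold. It was below that in both mutant libraries with Leiden resolution 2 (0.36 and 0.43), with genes scaled over all cells (0.33 and 0.52) and in the cluster led by Neurod2 alone (0.53 and 0.58). In the cluster led by Tac2 it was 0.83 and 0.48, and these single-cluster comparisons were chosen after seeing the data. With cells thinned to 1500 UMIs, a UMI of Stmn2 was seen in 43.9%, 59.0% and 56.7% of neuroblast-like cells, against 11.7%, 14.0% and 7.86% of microglia-like cells. Thinning left 1452, 1683 and 1750 of the neuroblast-like cells. Granule neuron markers summed to 9.03, 12.4 and 11.5 per 10000 UMIs in the neuroblast-like cells, and Stmn2 was higher in the cluster led by Neurod2 than in the one led by Tac2. The part of more mature cells in the Stmn2 difference was not tested. In microglia-like cells Stmn2 was at 112, 173 and 117 CPM.

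Map1b and Gap43 were also higher in neuroblast-like cells of both mutant libraries, by less. The Map1b levels of 968, 1236 and 1222 CPM gave log2 ratios of 0.35 (0.30 to 0.40) and 0.34 (0.29 to 0.39), and the Gap43 levels of 153, 189 and 182 gave 0.31 (0.18 to 0.44) and 0.26 (0.13 to 0.38). Stmn1 was lower in both, at 5734, 5225 and 5296 CPM (log2 ratio -0.13 and -0.12), as was Tubb3, at 1659, 1488 and 1599 CPM (-0.16 and -0.05). Dcx (730, 850, 751) and Map2 (330, 378, 337) were higher than wild-type beyond counting error in the nestin-Cre library alone. Over the 10 genes the log2 ratios had medians of 0.11 and 0.06, against 0.01 and 0.05 over all genes described.

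In granule neuron-like cells no gene of the 10 reached 1.5-fold in either direction, beside backgrounds of 10.6% higher and 7.11% lower for nestin-Cre and 5.68% and 2.85% for Emx1-Cre. The tubulins were lower in both mutant libraries. Tubb3, at 1694, 1266 and 1480 CPM, had log2 ratios of -0.42 (-0.50 to -0.34) and -0.20 (-0.28 to -0.11), and Tubb2b, at 6184, 4806 and 5523, had -0.36 (-0.41 to -0.32) and -0.16 (-0.21 to -0.12). Both ratios were below 0 under all 6 other ways of processing, for each mutant library. The difference was not particular to this class. In oligodendrocyte precursor-like cells Tubb3 was at 261, 168 and 213 CPM and Tubb2b at 2045, 1604 and 1787. In microglia-like cells Tubb3 was at 276, 204 and 187 CPM and Tubb2b at 1171, 822 and 958. That class joined clusters whose shares differed between libraries. In one of them (252, 341 and 211 cells) Tubb3 was at 118, 116 and 165 CPM and Tubb2b at 538, 509 and 788. The joint microglia-like values are therefore not read as a difference. Tubb3 was not lower in RGL-like or nIPC-like cells of either mutant library. Stmn2 showed no difference of the size seen in neuroblast-like cells, at 1236, 1138 and 1262 CPM (log2 ratio -0.12 and 0.03), and Stmn4 at 559, 441 and 528 was lower beyond counting error in the nestin-Cre library alone (-0.34, -0.48 to -0.20). Stmn1 was also lower in both mutant libraries (-0.17 and -0.16), whereas Map1b was higher in both (0.21 and 0.11), each beyond counting error. The median over the 10 genes was -0.11 and -0.01. The 11 other tubulin genes, a list of the 113, are described together here after their values were seen, so they add no weight to Tubb3 and Tubb2b. In granule neuron-like cells 6 of the 7 described were below the wild-type library for nestin-Cre and 5 of 7 for Emx1-Cre, beside 50.7% and 49.8% of all genes described. In neuroblast-like cells 7 and 6 of 8 were below the wild-type library (49.2% and 43.3% of all genes). In oligodendrocyte precursor-like cells it was 6 and 5 of 6 (1616 of 3451 and 1589 of 3473 genes). In RGL-like cells it was 6 and 2 of 8 (44.1% and 41.9% of all genes), and in nIPC-like cells 4 and 5 of 8 (46.7% and 42.9%). As examples of the lower side in granule neuron-like cells, Tuba1a, the main α-tubulin of young neurons, was at 8149, 5654 and 7339 CPM and Tubb5 at 3409, 2548 and 2932.

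In the progenitors, differences were larger in ratio but sat on low levels. In RGL-like cells 4 genes passed 1.5-fold upwards in the nestin-Cre library (background 7.72% of 7993 genes) and 2 in the Emx1-Cre library (background 4.05% of 8031 genes), and none was that much lower (background 2.46% and 1.29%). Of the 4 (Stmn2, Tubb3, Map2 and Stmn3), Stmn2 and Tubb3 lay below the microglia-like level in each library and are not read as expression, and Stmn3 did not lie above it in any. Map2, which was above it in each library, was at 146, 241 and 190 CPM, with log2 ratios of 0.72 (0.56 to 0.89) and 0.39 (0.21 to 0.56). In nIPC-like cells 3 genes (Stmn2, Map1b and Map2) passed 1.5-fold upwards in the nestin-Cre library (background 6.90%) and none in the Emx1-Cre library (background 4.52%), and none was that much lower in either (background 3.70% and 1.71%). Map2 was at 182, 288 and 242 CPM there (0.66, 0.51 to 0.81, and 0.41, 0.26 to 0.56), above the microglia-like level in each library. Stmn2 lay below that level in each, and Map1b, at 169, 272 and 219, was above it in the nestin-Cre library only, so the sizes of these 2 differences are not read. Neuroblast markers moved in the same order: they summed to 14.6, 21.6 and 17.7 per 10000 UMIs in RGL-like cells and to 85.4, 104.5 and 95.1 in nIPC-like cells. Granule neuron markers summed to 4.24, 6.12 and 5.19 in nIPC-like cells. The part of such later cells or of their RNA in the Map2 difference was not tested. Map2 stayed above the wild-type level under the 6 other ways of processing in both progenitor classes. The nIPC-like medians of 0.44 and 0.27 did not: they turned to -0.02 and -0.26 with finer clusters (Leiden resolution 2) and to -0.03 and -0.07 with genes scaled over all cells, where the class held 1140 and 1042 wild-type cells in place of 782. At Leiden resolution 2 different clusters filled the class in different libraries, with 619 wild-type against 33 and 50 mutant cells in a cluster led by Tac2 and 110 against 418 and 580 in one led by Eomes.

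**Figure D3:**
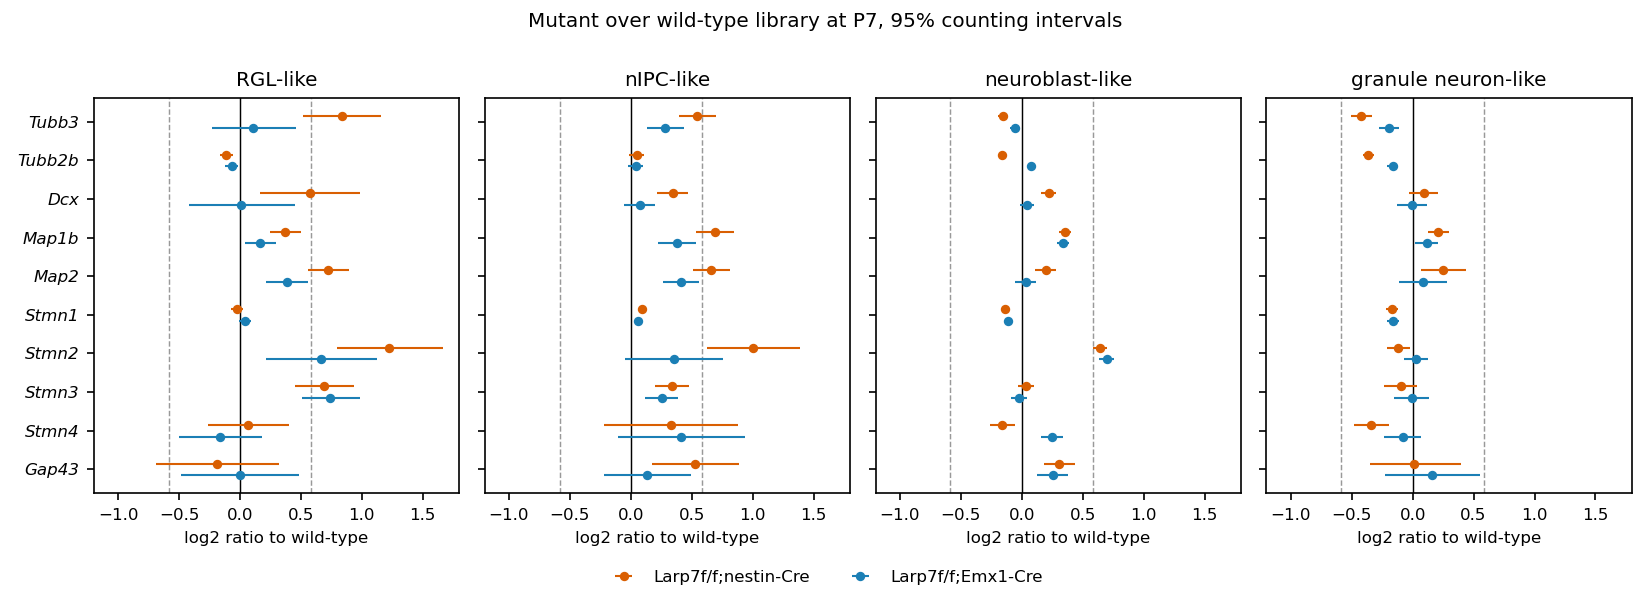
Log2 ratio of each mutant library to the wild-type library for the 10 genes in the 4 lineage classes, with exact 95% intervals for counting error. Solid lines mark 0 and dashed lines 1.5-fold. Stmn2 lies past 1.5-fold in neuroblast-like cells of both mutant libraries. In granule neuron-like cells Tubb3, Tubb2b and Stmn1 lie below 0 and Map1b lies above 0 in both. The wide intervals in RGL-like and nIPC-like cells belong to genes of few UMIs.

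**Figure D4:**
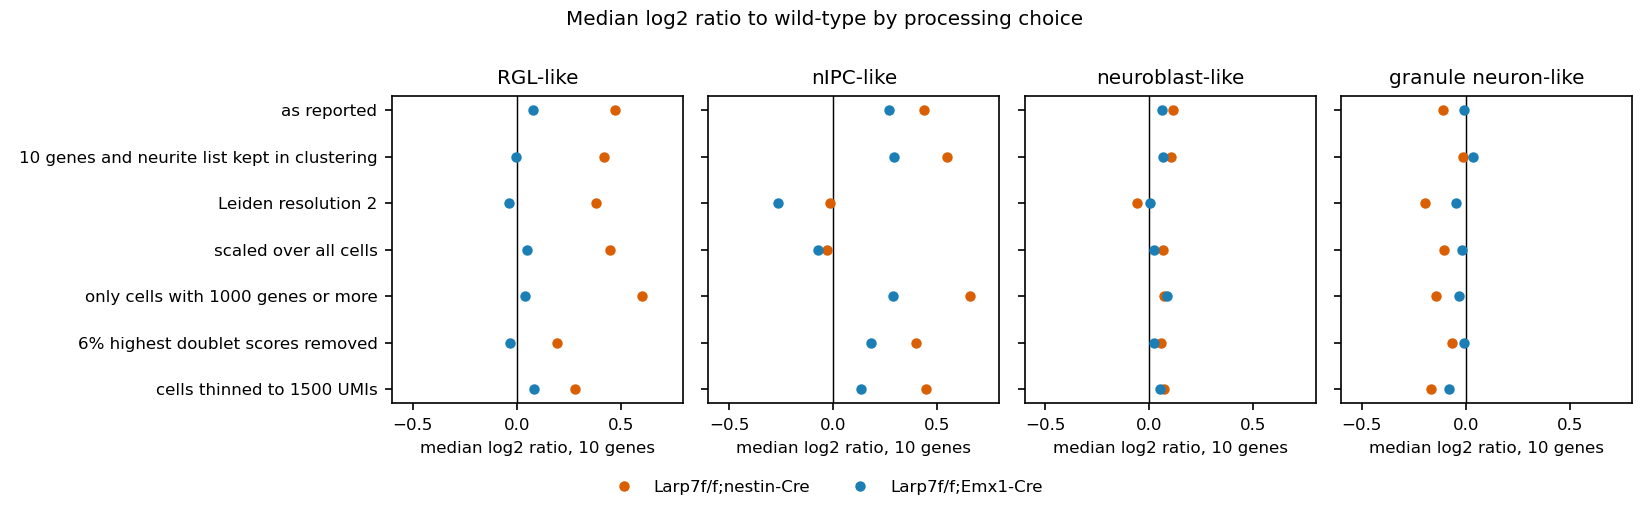
Median log2 ratio of the 10 genes to the wild-type library in each lineage class, as reported and under 6 other ways of processing. Neuroblast-like medians lie between -0.06 and 0.15 and granule neuron-like ones between -0.20 and 0.04, whereas the nIPC-like medians of 0.44 (nestin-Cre) and 0.27 (Emx1-Cre) fall below 0 with Leiden resolution 2 and with scaling over all cells.

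The list of 113 further neurite cytoskeleton genes also moved little as a list in neuroblast-like cells, with 8.82% higher and 5.88% lower at 1.5-fold in the nestin-Cre library (9.76% and 7.66% of all genes) and 3.96% higher and 1.98% lower in the Emx1-Cre library (6.76% and 2.95% of all genes, medians 0.12 and 0.07). In granule neuron-like cells it gave 4.44% higher and 3.33% lower of 90 (10.6% and 7.11% of all genes), and 2.44% higher and 1.22% lower of 82 (5.68% and 2.85% of all genes, medians -0.01 and -0.02). In nIPC-like cells it gave 16 higher and 2 lower of 89 (6.90% and 3.70% of all genes), and 7 higher and none lower of 88 (4.52% and 1.71% of all genes, medians 0.21 and 0.10). The pan-neuronal list of 20 genes had medians there of 0.44 and 0.22.

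The cultures were used to ask whether the same genes differed at day 2 of differentiation. The libraries held 59821311 to 62474602 counts. Here CPM are reads scaled to the library total. Larp7 was at 42.8 and 35.0 CPM in WT and at 4.17, 6.35 and 4.39 in KO, with a log2 fold change of -2.97 (edgeR quasi-likelihood test, adjusted p = 0.0198). At an adjusted p under 0.05 the test called 6 genes of 17753 (0.0338%), 3 of them higher (0.0169%) and 3 lower (0.0169%) in KO. None of the 9 cytoskeleton genes that passed the filter on low counts was among them, and Stmn2 did not pass the filter. At an unadjusted p under 0.05 there were 6 of the 9 (Stmn1, Stmn3, Map1b and Gap43 higher, Map2 and Stmn4 lower in KO), and 3844 of all genes tested, or 21.7%. The median log2 fold change of the 9 was 0.06, against 0.01 over all genes tested. DESeq2 called 1586 of 14810 genes (10.7%), of which 2 were among the 10 (Stmn1 and Map1b).

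Before any comparison, the levels themselves describe these cultures. Per kb of exon, Tubb2b stood highest, and the median over the 5 libraries was 216 CPM for Stmn1, 127 for Map2, 91.9 for Gap43, 77.4 for Stmn3, 16.0 for Tubb3, 11.5 for Dcx, 5.33 for Stmn4 and 2.06 for Map1b. Stmn2 had 0 and 3 counts in WT and 8, 8 and 0 in KO, so that it was at or near the limit of detection and no fold is given. RGL markers summed to 11440 to 14850 CPM, OPC markers to 7241 to 8462 and astrocyte markers to 2474 to 5025. Neuroblast markers summed to 1500 to 2040, nIPC markers to 896 to 1725 and granule neuron markers to 395 to 467. The lists hold different genes, so these sums do not measure shares of cells. In bulk RNA, fewer cells of a type and less RNA per cell cannot be told apart.

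Stmn1 showed the smallest p of the 9 genes tested. It was at 199 and 151 CPM in WT and at 265, 243 and 229 in KO, and the groups did not overlap, as was the case for 42.6% of all genes tested. The log2 fold change was 0.49 with an unadjusted p of 0.00661 and an adjusted p of 0.123 (edgeR). The adjusted p ran from 0.00647 with DESeq2 to 0.344 with the replicate block, and without WT replicate 1 it was 0.0132. Top2a, Mki67 and Cdk1, the most abundant nIPC markers and genes of dividing cells, were also higher in KO. Mki67 was at 398 and 199 CPM in WT and at 520, 521 and 494 in KO (adjusted p = 0.175, edgeR), and the part of dividing cells in the Stmn1 difference was not tested.

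Of the tubulins, Tubb3 and Tubb2b were close between the groups. Tubb3 was at 26.1 and 34.5 CPM in WT and 24.2, 27.9 and 28.4 in KO (log2 fold change -0.17, adjusted p = 0.52, edgeR), with overlapping groups. Tubb2b was at 2000 and 2007 in WT and 1720, 1925 and 1903 in KO (-0.12, adjusted p = 0.501, edgeR). Its KO libraries lay below the WT ones, by 7.69% in the mean. The 11 other tubulin genes had a median log2 fold change of 0.28, with 4 of 11 below 0 and none called by edgeR. That median is on the other side from the P7 granule neuron-like cells.

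Of the proteins that bind microtubules, Dcx was at 97.0 and 106 CPM in WT and 99.1, 107 and 111 in KO (0.06, adjusted p = 0.675, edgeR). Map1b was at 22.5 and 14.97 in WT and 31.6, 24.4 and 34.7 in KO (0.69, adjusted p = 0.158, edgeR), with no overlap. Map2 was at 1285 and 1549 in WT and 1117, 1269 and 1142 in KO (-0.27, adjusted p = 0.229, edgeR), again with no overlap. Map1b and Map2 thus lay on opposite sides of WT, and the spread between the WT libraries was wide in both.

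Among the other stathmins, Stmn3 was at 72.4 and 81.5 CPM in WT and 88.0, 93.7 and 90.2 in KO (0.24, adjusted p = 0.159, edgeR). Stmn4 was at 7.86 and 14.9 in WT and 7.46, 7.70 and 5.44 in KO (-0.73, adjusted p = 0.217, edgeR), where WT replicate 2 set the WT mean. Gap43 was at 120 and 98.1 in WT and 142, 118 and 141 in KO (0.29, adjusted p = 0.219, edgeR), with overlapping groups. Without WT replicate 1, 3 of the 10 genes passed the threshold: Stmn1 and Map1b were higher and Stmn4 lower in KO, in a fit that called 1905 of 18707 genes (10.2%) and assumes that the lone WT library varies like the KO ones.

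**Figure D5:**
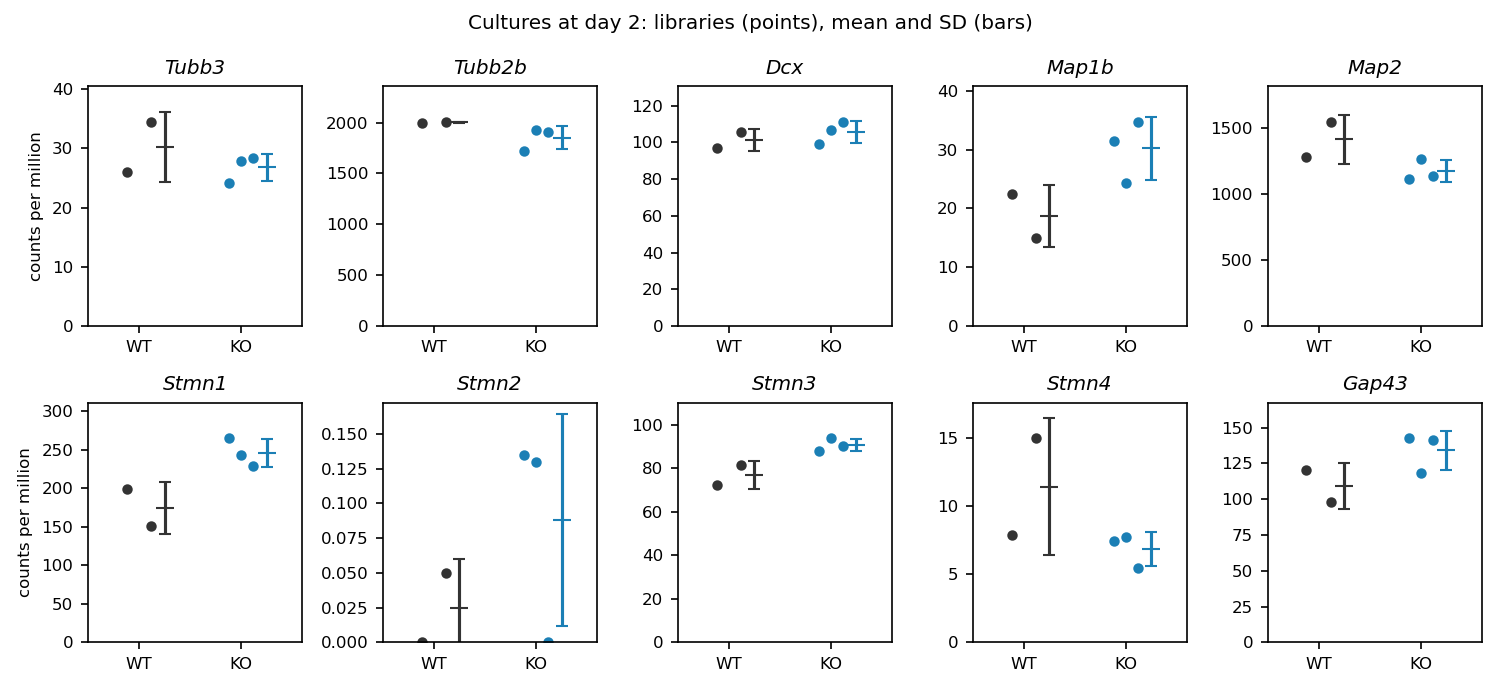
CPM (linear axis from 0) of the 10 genes in the 2 WT and 3 KO culture libraries at day 2, with the mean and SD of each group beside the points. Stmn1, Stmn3 and Map1b lie higher and Map2 and Stmn4 lower in the KO libraries without a gene of the 9 tested reaching an adjusted p of 0.05, and Stmn2 is near 0 throughout.

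None of the 112 tested genes of the wider neurite cytoskeleton list was called by edgeR (background 0.0338%), 26 had an unadjusted p under 0.05 and DESeq2 called 6 higher and 7 lower, and their median log2 fold change was -0.03. The summed list stood at 25860 to 26210 CPM in WT and 26130 to 26290 in KO. The growth cone and membrane group was at 3502 to 3793 in WT and 3449 to 3519 in KO, and the tubulin group at 5654 to 6336 and 6424 to 6592. None of the 20 pan-neuronal genes was called by edgeR either, with 4 at an unadjusted p under 0.05, 1 called by DESeq2 and a median of -0.14. Nsg1, Scg3 and Nsg2, the most abundant of them, had log2 fold changes of -0.13, -0.31 and -0.25 (adjusted p = 0.439, 0.186 and 0.561, edgeR).

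Marker lists of other cell types are given beside these results, since the cultures were mixed, and edgeR called no gene of any list, with 51 of the 132 markers tested at an unadjusted p under 0.05. The 15 astrocyte markers tested had a median log2 fold change of -0.69, and their sum was 4275 to 5025 CPM in WT and 2474 to 3298 in KO. Slc6a11, a GABA transporter, was at 1189 and 1238 in WT and 842, 577 and 755 in KO (adjusted p = 0.0987, edgeR). The 12 OPC markers had a median of 0.64, with Pdgfra at 820 and 765 in WT and 1115, 1267 and 1134 in KO (adjusted p = 0.0933, edgeR). The 7 GABAergic neuron markers had a median of -0.72, the 15 nIPC markers 0.37, the 18 RGL markers 0.12, the 11 neuroblast markers 0.15 and the 15 granule neuron markers 0.13. Their part in the differences of the cytoskeleton genes was not tested.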

How the data were processed

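For the P7 libraries the authors deposited raw UMI counts (10x 3′ chemistry, Cell Ranger 4.0.0 in the matrix header). For the cultures the deposited table holds raw read counts per gene, which the authors obtained with Minimap2 and the Ensembl transcriptome. How strand and reads shared between genes were handled is not stated there. Of the columns of that table, 5 were used and 5 matched no sample. The submitters' processing notes name mm10. The members and all gene lists were chosen with earlier results of these data known. The genes named are the 10, Larp7, the 5 most alike and examples from the lists.

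Cells with over 500 genes and under 15% mitochondrial UMIs were kept, log-normalized and clustered in scanpy 1.11.5 (2000 variable genes scaled within each library, 30 components, 15 neighbours, Leiden resolution 1), leaving out cell cycle genes and the neurite genes. A cluster took a name when at least 3 markers were in 10% of its cells and 1.5-fold up with a list mean log2 of at least 0.5, limits set after seeing the data. Doublets were kept, since Scrublet marked 2 wild-type cells (0.0182%) against 272 and 407. Cultures were tested with edgeR 4.0.16 (TMM, filterByExpr, quasi-likelihood, Benjamini-Hochberg) in R 4.3.3, and DESeq2 1.42.0 was an alternative. Scripts were tested on simulated data. In simulated cultures the edgeR test recovered 52% of 200 genes changed 2-fold, with 8 false calls. A gene that was not called in the cultures can therefore still differ. Exon lengths came from RefSeq. The ATAC-seq and CUT&Tag libraries were not analysed here.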

Additional observations from a re-analysis of the deposited data

Results flagged for a closer look

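In neuroblast-like cells the mutant libraries lay on opposite sides of the wild-type library for 2 of the 10 genes, beyond counting error. Tubb2b had a log2 ratio of -0.164 in the nestin-Cre library and 0.08 in the Emx1-Cre library, and Stmn4 had -0.158 and 0.25. The difference between the mutant libraries was not tested, since each is 1 library. The libraries are named by their titles, which the genotype entries contradict and the number of cells kept by the study fits. The Tubb2b ratio of the Emx1-Cre library turned to -0.08 at Leiden resolution 2, and to -0.04 in the cluster led by Neurod2 alone.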

How the results depend on the processing

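In the cultures, 6 genes were called (3 higher, 3 lower). DESeq2 called 1586 (726 higher, 860 lower), with 2 of the 10 genes higher, 6 of the neurite list higher and 7 lower, and 1 pan-neuronal gene lower. Without the filter on low counts 3 were called, 1 of them higher. With the replicate number as a block (replicate block) 0 were called, 0 higher and 0 lower, and the adjusted p of Larp7 was 0.344. Same-numbered libraries correlated at 0.041 and 0.21 in their deviations, over 2 pairs only, so they were not taken as pairs. Leaving out 1 library each gave 0 to 1905 calls (0 to 1050 higher, 0 to 855 lower), all the high ends without WT replicate 1. It gave 0 to 2 of the 10 genes higher and 0 to 1 lower, 0 to 11 of the neurite list higher and 0 to 14 lower, and 0 to 7 pan-neuronal genes lower. The median of the 10 genes then ran from -0.001 to 0.125. Without WT replicate 1 Dcx turned to -0.001, and Tubb3, at -0.363 there, turned to 0.043 without WT replicate 2. Without KO replicate 1 and KO replicate 3 the adjusted p of Larp7 was 0.148 and 0.195.

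At P7 values moved with how classes were formed and which cells were kept. With Leiden resolution 2 the wild-type lineage medians were 1.265 (nIPC-like over RGL-like) and 1.805 (neuroblast-like over nIPC-like). The nIPC-like medians turned to -0.017 (nestin-Cre) and -0.263 (Emx1-Cre), with 0 genes past 1.5-fold upwards for nestin-Cre and 1 downwards for Emx1-Cre. For nestin-Cre, Dcx was then at -0.097, Tubb3 at -0.495, Stmn1 at -0.026 and Stmn3 at -0.008, and for Emx1-Cre, Tubb3 at -0.635, Stmn1 at -0.054, Stmn3 at -0.019 and Map1b at -0.013. The neuroblast-like medians were -0.059 and 0.002, with 0 genes past 1.5-fold in either library, Gap43 at -0.04 (nestin-Cre) and Tubb2b at -0.079 (Emx1-Cre), and 1 RGL-like gene was past it for Emx1-Cre. With genes scaled over all cells the nIPC-like over RGL-like median was 1.076, and the nIPC-like medians were -0.031 and -0.074, with Dcx at -0.029, Tubb3 at -0.165, Stmn1 at -0.05 and Gap43 at -0.033 for nestin-Cre and Tubb3 at -0.213 for Emx1-Cre. No gene passed 1.5-fold there for nestin-Cre (0), nor in neuroblast-like cells of either library (0).

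With the neurite genes kept in the clustering the later lineage medians were 1.917 and -0.099, and Stmn2 in granule neuron-like cells of the nestin-Cre library was at 0.02. With only cells of at least 1000 genes the earlier medians were 1.343 and 1.912, and 6 nIPC-like genes passed 1.5-fold for nestin-Cre. With the 6% highest doublet scores removed the 3 lineage medians were 1.61, 1.606 and -0.1, and the RGL-like median for nestin-Cre was 0.192, with 2 genes past 1.5-fold, and 0 for Emx1-Cre. Cells thinned to 1500 UMIs gave 0 for Emx1-Cre too. In the neuroblast-like cluster led by Neurod2 alone the medians were 0.035 and -0.02, with 0 genes past 1.5-fold in either library and Tubb2b at -0.036 (Emx1-Cre), and in the cluster led by Tac2 alone 0 passed for Emx1-Cre. These single-cluster values were chosen after seeing the data. As means of log-normalized values Tubb3 in neuroblast-like cells was 0.015 (Emx1-Cre) and Stmn2 in granule neuron-like cells 0.048 (nestin-Cre). The cause of these changes was not tested. With 1 library per genotype, the intervals cover counting error and not the spread between animals.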
